A study of Homo sapiens with 12 samples.

Results

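Cells given both STINGX and TGFb were set against untreated cells, to describe the state that remained after both treatments: which genes kept the direction TGFb gave them, which passed to the other side of the untreated level, and which single transcripts changed. The libraries were chosen by their labels, so 8 of the 12 libraries of the series entered this comparison, 4 a side. LX2 is an established human line of hepatic stellate cells, labelled wild type. All 3 groups were serum starved for 16 h, starting 24 h after seeding. The control group received no further agent named in the labels. The TGFb group received TGFb at 5 ng/ml for 16 h. The STINGX with TGFb group received 10 μM of the compound the labels call STINGX for 3 h before the same TGFb treatment. No library in the files had STINGX without TGFb, so an effect of STINGX alone and its effect on the TGFb response cannot be told apart. The labels name no vehicle for the control, and do not tell whether the 4 libraries of a group are independent cultures. The p-values therefore reflect no more than the variation among these libraries, which may be technical.

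TGFb binds a pair of receptor kinases that phosphorylate SMAD2 and SMAD3, and with SMAD4 these switch on genes for matrix, contractile fibres and their own inhibitors, among them SMAD7. In the liver, stellate cells answer TGFb by making the collagen and fibronectin of scar tissue. STING is an adaptor in the membrane of the endoplasmic reticulum that responds to the dinucleotide made by cGAS on DNA in the cytosol, and through TBK1 it switches on interferon genes by IRF3 and inflammatory genes by NF-kappaB. The endoplasmic reticulum also has stress pathways of its own, in which XBP1 and ATF6 raise chaperones such as HSPA5 and ATF4 raises amino acid transporters and synthesis enzymes.

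Levels are given as CPM, counts scaled to a common library total after TMM scaling, which sets the libraries to a common level for most genes. A log2 fold change is STINGX with TGFb over control unless another comparison is named, and a gene was called when its edgeR quasi-likelihood adjusted p was under 0.05. Library totals ran from 54035320 to 70787741 counts. Mitochondrially encoded genes took 10 to 11.3% of the counts in control libraries, 8.77 to 9.46% with TGFb and 8.16 to 8.46% with STINGX and TGFb. Summed over 15 markers of stellate cell identity the libraries held 7369 to 7437 CPM in the control, 12498 to 12764 with TGFb and 5866 to 6309 with STINGX and TGFb, and DES, which encodes desmin, was at 0 in all 12. Of 18 hepatocyte markers, ALB, APOB, APOC3, TTR, FGB and G6PC1 were at 0, and the list's sum was 11.3 to 13.9 CPM in the control and 6.86 to 7.83 with STINGX and TGFb. In bulk RNA, fewer cells of a kind and less RNA per cell cannot be told apart.

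SMAD7 (ENSG00000101665, GRCh38 chr18:48919853-48952052, minus strand), the inhibitory SMAD that TGFb itself induces, stood at 18, 19.3, 18.9 and 12.8 CPM in the control libraries, 113, 107, 105 and 107 with TGFb and 60.4, 62.8, 54.1 and 60 with STINGX and TGFb. Every library with both agents lay above every control library and below every library with TGFb alone (log2 fold change 1.78 ± 0.1 (SE), adjusted p = 5.7e-08). VCAM1 (ENSG00000162692, chr1:100719742-100739045, plus strand), an adhesion molecule for leukocytes whose gene NF-kappaB drives, stood at 31.4, 27, 31.2 and 32.1 CPM in the control libraries, 3.87, 3.76, 4.23 and 3.19 with TGFb and 1.03, 1.24, 1.35 and 1.92 with STINGX and TGFb. Here TGFb and the pair of agents lay on the same side of the control, with the pair lowest and no overlap between groups (log2 fold change -4.46 ± 0.14 (SE), adjusted p = 3.31e-10). SLC3A2 (ENSG00000168003, chr11:62856102-62888875, plus strand), the heavy chain that carries several amino acid transporters to the cell surface, stood at 172, 175, 152 and 157 CPM in the control libraries, 185, 209, 229 and 226 with TGFb and 1293, 1309, 1148 and 1425 with STINGX and TGFb. Its rise was far larger with both agents than with TGFb alone, whose mean was 212 CPM (log2 fold change 2.98 ± 0.086 (SE), adjusted p = 1.53e-10). So 1 gene kept part of its TGFb rise, 1 moved further in the direction of TGFb, and 1 rose mostly where STINGX was present.

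The window around the start of VCAM1 is printed because it holds the letters through which NF-kappaB proteins are known to bind; it is RefSeq sequence of GRCh38.p14 at chr1:100719492-100719791, plus strand, and capitals mark matches to GGNNTTTCC on either strand.
VCAM1: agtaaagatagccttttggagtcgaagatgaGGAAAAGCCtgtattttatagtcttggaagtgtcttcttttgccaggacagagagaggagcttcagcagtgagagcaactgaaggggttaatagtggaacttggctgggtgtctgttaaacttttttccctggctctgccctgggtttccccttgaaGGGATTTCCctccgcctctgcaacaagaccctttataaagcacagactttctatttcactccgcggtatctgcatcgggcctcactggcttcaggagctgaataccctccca
The matches begin 219 bases before the start on the minus strand and 62 bases before it on the plus strand. Such letters stood in 6.26% of 35116 promoter windows of this length (250 bases before to 50 after a start). Counting a gene with a match at any of its starts, they stood in 8.86% of the 12507 tested genes with a window and in 19 of the 33 genes of the NF-kappaB and inflammatory list that had a window (57.6%). Among these 19, REL, CXCL3, CXCL5 and TSLP were called higher, BIRC3 and CXCL8 were not called, and the rest were lower. A match describes the letters only.

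**Figure D1:**
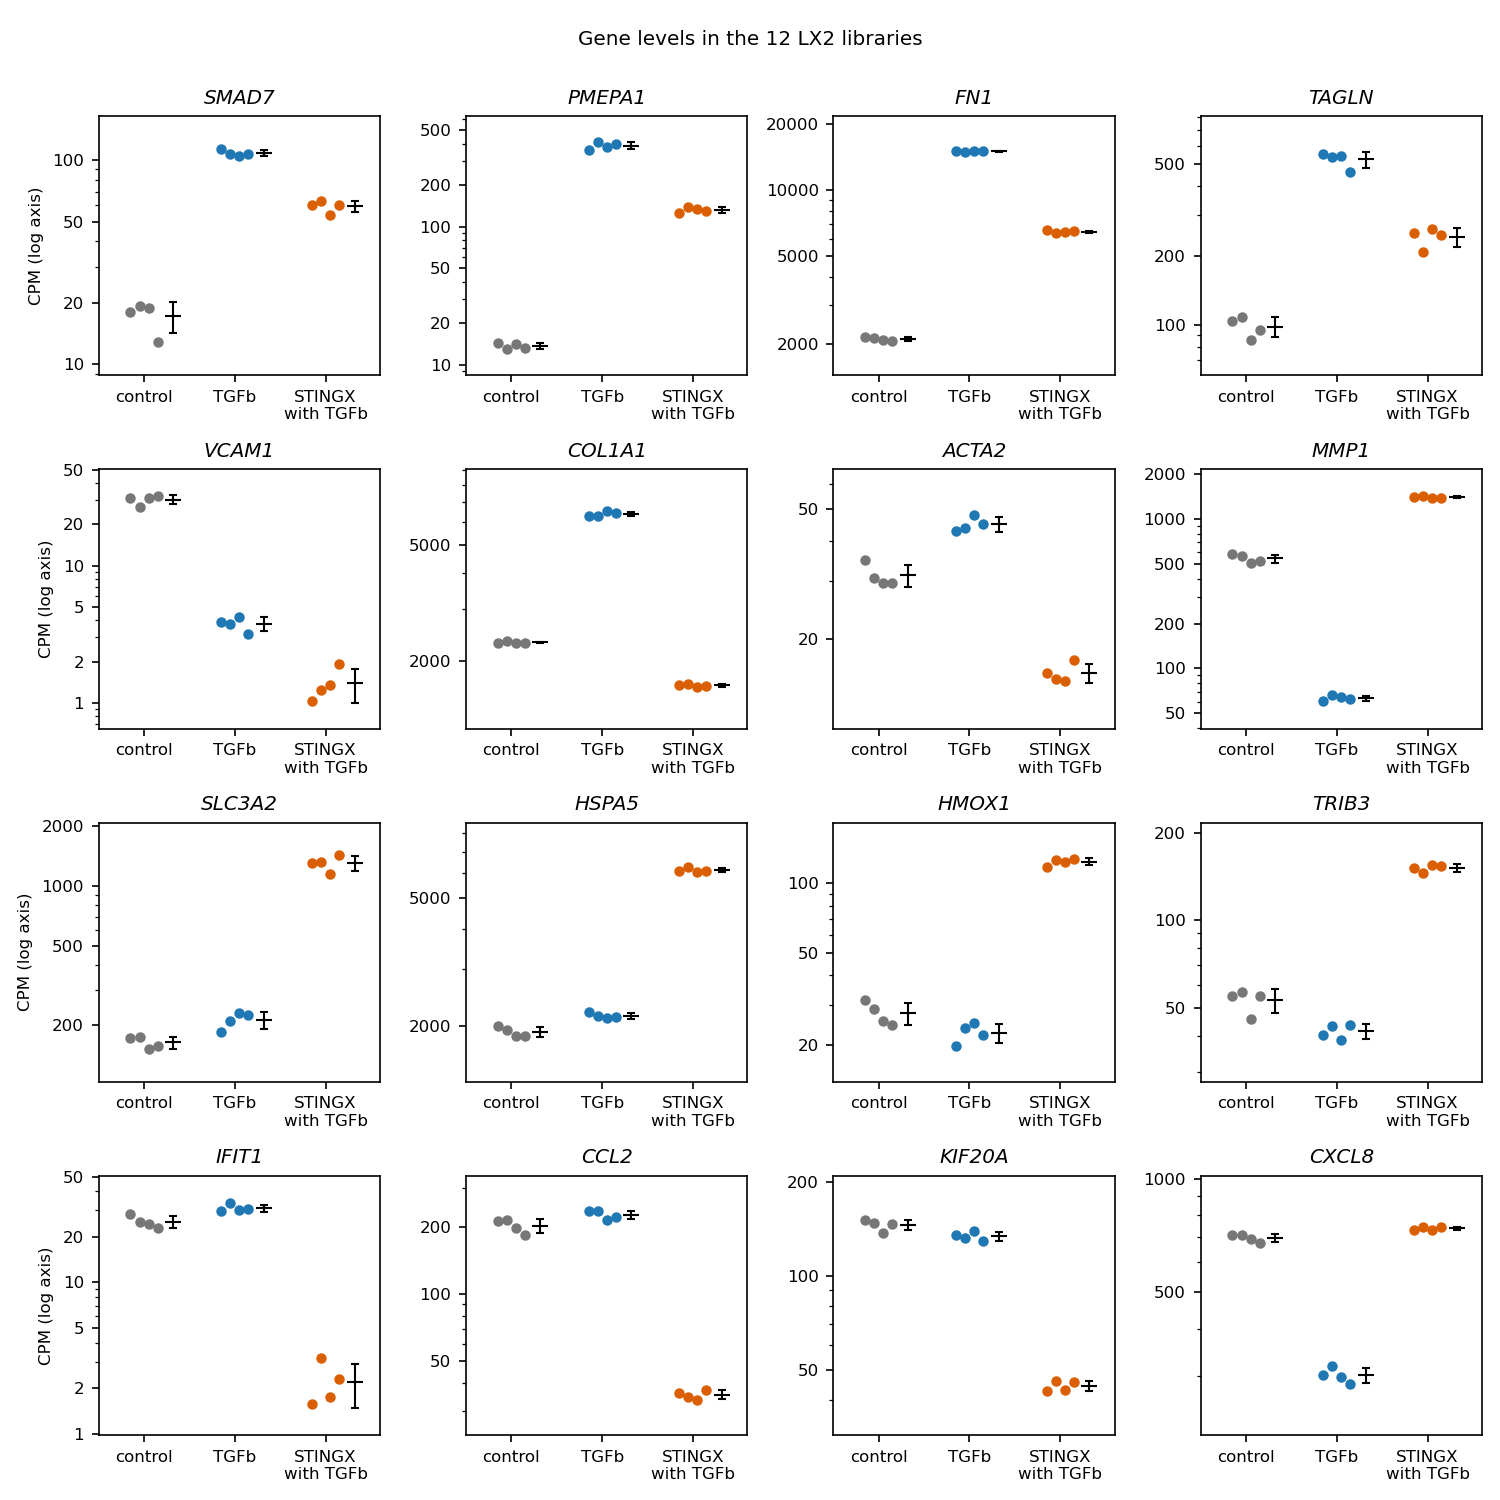
Level of 16 genes in CPM on log axes in the 4 control, 4 TGFb and 4 STINGX with TGFb libraries; each point is a library, and the black marks beside them give the mean and SD. FN1 and SMAD7 with both agents lie between the other groups, COL1A1 and ACTA2 lie below the control, MMP1 lies above it, and CXCL8 with both agents lies close to the control.

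Across all genes 7296 of 21328 tested genes were called between STINGX with TGFb and control (34.2%), 3670 higher (17.2%) and 3626 lower (17.0%). A change of 2-fold or more was seen upward in 681 and downward in 936 of these. The 4 libraries of one group lay wholly beyond those of the other for 7353 genes (34.5%). For TGFb against control the called share was 26.0% (13.2% higher, 12.8% lower), and for STINGX with TGFb against TGFb it was 27.5% (13.7% higher, 13.8% lower). The scaling moved the balance: higher genes were 50.3% of the calls here, 62% with scaling by library size alone and 42.7% with upper quartile scaling. With limma on log2 FPKM values, which changes the values and the test as well, they were 61.9% or 61.8%. Under these 4 settings the median over all genes moved by less than 0.1 in log2.

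The called genes were sorted by their call in TGFb against control. Both comparisons use the same control libraries, so the sizes of these classes are a description and carry no test. The groups are separate libraries, so words such as kept, stayed, passed and crossed compare groups and describe no course in time. TGFb-like genes, called in both with the same sign, numbered 3167, with 1609 higher and 1558 lower. Of the 1609 higher ones, 335 were lower than in cells with TGFb alone, 313 were higher still and 961 were not called between those groups. Of the 1558 lower ones, 225 were higher than with TGFb alone, 328 were lower still and 1005 were not called. Genes past the untreated level, called in both with opposite signs, numbered 448, with 194 higher and 254 lower than control. A further 3681 genes (1867 higher, 1814 lower) were called here and not in TGFb against control. Against cells with TGFb alone, 1107 of the higher ones were higher and 760 were not called. Among the lower ones, 1033 were lower and 781 were not called. Finally 1928 genes were called only in TGFb against control, 950 higher and 978 lower with TGFb.

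The largest TGFb-like rises among genes of at least 2 CPM were in PAPPA2, a protease that frees insulin-like growth factors (5.40, and 6.0 without control library 4), ZNF778, a zinc finger gene (4.15), EPHB1, an ephrin receptor (3.54), and CALB2, which encodes the calcium binding protein calretinin (3.47). PAPPA2 had means of 0.103, 0.337 and 4.44 CPM in control, TGFb and both agents, so most of its rise was absent with TGFb alone. ZNF778 stood at 21.7, 17.6, 1.82 and 17.7 CPM in the TGFb libraries, library 3 being near the control mean of 1.22 CPM. EPHB1 was measured at 1.93, 1.99, 1.08 and 1.33 CPM in the control libraries, 5.8, 6.05, 5.64 and 6.42 with TGFb and 18.6, 20.3, 18.2 and 16.2 with STINGX and TGFb, so the groups were in order with no overlap. The uncharacterised AC005192 had 1 count over the control libraries and 2088 with both agents, a ratio of 1970 (352 to 77700 by counting error alone). It overlaps IFRD1 and LSMEM1 on the same strand, and its adjusted p of 0.0482 rose above the threshold without any 1 of 10 libraries (0.0533 to 0.107), leaving only 2 libraries whose removal kept the call. Without control library 2 its log2 fold change was 11.92 in place of 10.37.

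Beside VCAM1, the TGFb-like falls included PPL, a desmosome protein (-4.43; -5.05 without STINGX with TGFb library 2). MIR155HG, the host transcript of a microRNA, and AP001972, which lies within ARRB1 on the same strand, also fell (-6.18 and -6.01). Both were uneven in the control, at 9.16, 0.825, 7.34 and 11.5 CPM and 22.3, 21.6, 0.632 and 22.3 CPM. Neither was called by limma-voom (adjusted p = 0.211 and 0.275), and the fall of MIR155HG was 7.04 in log2 without STINGX with TGFb library 4.

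Among 20 ligands, receptors and latent binding proteins of the TGFb family, 9 were higher, 8 lower and 3 not called, with a median log2 fold change of -0.1 beside 0.004 over all genes. For this and every list below, the shares over all tested genes were 17.2% higher and 17.0% lower. INHBA, the subunit of activin A, stood at 26.3, 28.7, 23.6 and 27.8 CPM in the control libraries, 142, 119, 147 and 124 with TGFb and 143, 143, 109.6 and 137 with STINGX and TGFb. Its levels with both agents overlapped those with TGFb alone and lay apart from the control (log2 fold change 2.32 ± 0.1 (SE), adjusted p = 4.15e-09). FSTL3, which binds activin, did the same, at 10.4, 9.85, 5.48 and 19.4 CPM in the control libraries, 53.4, 55.1, 59.2 and 56.5 with TGFb and 56, 52, 58.2 and 55.5 with STINGX and TGFb (log2 fold change 2.29 ± 0.27 (SE), adjusted p = 5.6e-05). TGFB1 itself rose from 166 to 225 CPM with 520.4 CPM under TGFb alone, and LTBP2, a latent binding protein, rose from 18.2 to 41.9 CPM. GDF6, a bone morphogenetic protein relative, rose by 3.11 (3.80 without control library 1). The receptor gene TGFBR2 fell by 0.33 in log2 and ENG, a co-receptor, fell from 183 to 97.2 CPM although TGFb alone stood at 266 CPM. BMP4 was lower in all libraries with TGFb, at 19.5, 20.8, 17.8 and 20.6 CPM in the control, 5.72, 6.57, 5.99 and 5.56 with TGFb and 9.38, 8.9, 5.8 and 5.29 with both agents.

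Of 21 SMADs and feedback genes, 9 were higher and 2 lower, with a median of 0.19. PMEPA1, which overlaps NKILA on the opposite strand and encodes a membrane protein that sequesters SMADs, stood at 14.4, 13, 14.1 and 13.1 CPM in the control libraries, 360.0, 411, 381 and 396 with TGFb and 126, 140.2, 135 and 131 with STINGX and TGFb, the largest rise of that list (log2 fold change 3.28 ± 0.059 (SE), adjusted p = 3.94e-12). LDLRAD4, which acts in a similar way, rose from 3.92 to 9.46 CPM, SKIL, a SMAD corepressor, rose from 13.5 to 25.1 CPM, and the ubiquitin ligase gene SMURF2 rose from 125 to 164 CPM. These kept part of the level seen with TGFb alone, whose means were 26, 32.3 and 255 CPM. SMAD3 fell from 316 to 141 CPM with 159 CPM under TGFb alone. ID1, an inhibitor of basic helix-loop-helix factors, passed the untreated level downward, at 6.57, 8.33, 5.96 and 6.76 CPM in the control libraries, 14.8, 15.2, 15.4 and 14 with TGFb and 2.77, 2.79, 2.55 and 3.56 with STINGX and TGFb, with no overlap between groups (log2 fold change -1.24 ± 0.13 (SE), adjusted p = 1.05e-05). ID3 and SMAD6 were called only in TGFb against control, with means of 11.3, 35.2 and 11.4 CPM and 4.51, 7.43 and 4.79 CPM in control, TGFb and both agents. Their differences from control were 0.02 ± 0.12 and 0.09 ± 0.13 in log2 (SE).

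Of 37 tested genes listed as direct targets of TGFb, 26 were higher (22 TGFb-like), 5 lower and 6 not called, and the median was 0.73. This list was chosen with earlier results of these data known, so its counts are a description and carry no test. NOX4, an oxidase that makes hydrogen peroxide, stood at 0.128, 0.0622, 0 and 0 CPM in the control libraries, 3.38, 2.87, 2.66 and 2.4 with TGFb and 1.37, 0.974, 0.878 and 1.02 with STINGX and TGFb (log2 fold change 4.48 ± 0.56 (SE), adjusted p = 6.67e-06; 5.59 without control library 1). EGR2, an early growth response factor, stood at 1.02, 1.07, 1.56 and 0.948 CPM in the control libraries, 43.4, 38.4, 37.7 and 37.7 with TGFb and 6.65, 4.89, 6.36 and 5.47 with STINGX and TGFb. Both lay between control and TGFb alone in every library. ESM1, a secreted proteoglycan, exceeded TGFb alone, at 33, 29.2, 30.2 and 29.8 CPM in the control libraries, 67.1, 56.6, 66.1 and 63.4 with TGFb and 156, 162, 161 and 160.3 with STINGX and TGFb, and VEGFA, the vascular growth factor, stood at means of 148, 362 and 399.7 CPM. The other targets given here, chosen here after their values were seen, were FOXS1, ISLR2, PDGFB and TSPAN2, which had means of 0.0551, 10.2 and 0.0864 CPM, 0.342, 18.7 and 0.585 CPM, 12.3, 98.1 and 13.4 CPM and 3.91, 14.5 and 4.21 CPM in the same group order. None of these 4 was called here (adjusted p from 0.263 to 0.777), and their log2 differences of 0.67 ± 0.87, 0.79 ± 0.78, 0.12 ± 0.08 and 0.11 ± 0.25 (SE) leave wide room for the low-count FOXS1 and ISLR2.

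Matrix genes split. Of 35 tested, 9 were higher, all TGFb-like, and 23 were lower. Of these 23, 9 were above the control with TGFb alone and below it with both agents. The median was -0.44, while for TGFb against control it was 0.77. FN1, fibronectin, stood at 2137, 2127, 2081 and 2061 CPM in the control libraries, 15020.1, 14939.9, 15108 and 14965 with TGFb and 6543, 6363, 6453 and 6487 with STINGX and TGFb, so a part of its TGFb level remained (log2 fold change 1.62 ± 0.022 (SE), adjusted p = 3.07e-13). VCAN, the proteoglycan versican, rose from 16.9 to 57.8 CPM, BGN, biglycan, rose from 3.31 to 10.1 CPM, and POSTN, periostin, rose from 0.725 to 3.79 CPM. On the other side COL1A1, the main chain of type I collagen, stood at 2307, 2329, 2289.8 and 2303 CPM in the control libraries, 6282, 6253, 6509 and 6425 with TGFb and 1651, 1662, 1629 and 1634 with STINGX and TGFb. The libraries with both agents were below every control library, by a small amount with a tight spread (log2 fold change -0.49 ± 0.023 (SE), adjusted p = 6.37e-09). COL1A2, COL4A2, COL16A1, FBN1, LAMB1 and SPARC crossed in the same way, with log2 fold changes from -0.69 to -0.20. COL3A1, COL12A1, LUM and DCN were low with TGFb alone and lower still or about as low with both agents, COL12A1 at 785, 783, 726 and 729 CPM in the control libraries, 375, 379, 342 and 338 with TGFb and 198, 193, 190.4 and 180.1 with STINGX and TGFb. COL4A1 and COL6A3 were not called, with means of 261, 1209.9 and 228 CPM and 247, 959 and 276 CPM.

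Enzymes that crosslink or cut matrix moved both ways, with 9 of 30 higher and 14 lower (median -0.26). The lysyl oxidase genes LOX, LOXL1, LOXL2, LOXL3 and LOXL4 all fell, LOXL4 the most, at 15.5, 14.2, 12.8 and 11.3 CPM in the control libraries, 10.6, 9.65, 11.4 and 11.6 with TGFb and 2.3, 3.16, 3.95 and 3.24 with STINGX and TGFb (log2 fold change -2.10 ± 0.15 (SE), adjusted p = 2.91e-07). MMP1, interstitial collagenase, whose gene overlaps WTAPP1 on the opposite strand, crossed the untreated level upward: 581, 566, 513 and 522 CPM in the control libraries, 60.2, 65.9, 63.9 and 62.4 with TGFb and 1417, 1421, 1394 and 1395 with STINGX and TGFb. All libraries with both agents were above all control libraries, which were above all libraries with TGFb (log2 fold change 1.37 ± 0.044 (SE), adjusted p = 3.31e-10). SERPINB2, an inhibitor of urokinase, crossed likewise, with means of 386, 35.5 and 506 CPM. ADAM19 and ADAMTS1, both metalloproteases, rose from 34.1 to 189 CPM and from 43.3 to 144 CPM. With TGFb alone their means were 312 and 51.9 CPM. ADAM19 was uneven in the control, at 19.1, 49.9, 18.7 and 48.7 CPM. TIMP3 and PLAU were near control, at 111, 220.2 and 113 CPM and 175, 300.4 and 182 CPM.

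The contractile list was even, with 11 of 28 higher, 9 lower and a median of 0.0. TAGLN, an actin binding protein of smooth muscle whose gene overlaps PCSK7 on the opposite strand, stood at 104, 108, 86.2 and 95 CPM in the control libraries, 554, 538, 542 and 462 with TGFb and 249.5, 208, 262 and 247 with STINGX and TGFb (log2 fold change 1.3 ± 0.088 (SE), adjusted p = 2.09e-07), and TPM1, CALD1 and PDLIM7 were TGFb-like at means of 442, 1442 and 725 CPM, 270.3, 620.3 and 410.5 CPM and 119, 230.1 and 217 CPM. ACTA2, alpha smooth muscle actin and the usual mark of stellate cell activation, was past the untreated level: 35, 30.8, 29.7 and 29.8 CPM in the control libraries, 43, 43.7, 48.1 and 45 with TGFb and 15.7, 15, 14.9 and 17.2 with STINGX and TGFb. No library overlapped between groups (log2 fold change -1.0 ± 0.073 (SE), adjusted p = 4.26e-07). ACTA2 overlaps AL157394 on the same strand and FAS, STAMBPL1 and ACTA2-AS1 on the opposite strand. TAGLN also overlaps AP000892 on the same strand. Use of strand in counting is not given in the sources used here. MYLK, myosin light chain kinase, fell from 320.4 to 164 CPM, and ITGB1, an integrin chain, stood at means of 1633, 2897 and 1324 CPM.

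**Figure D2:**
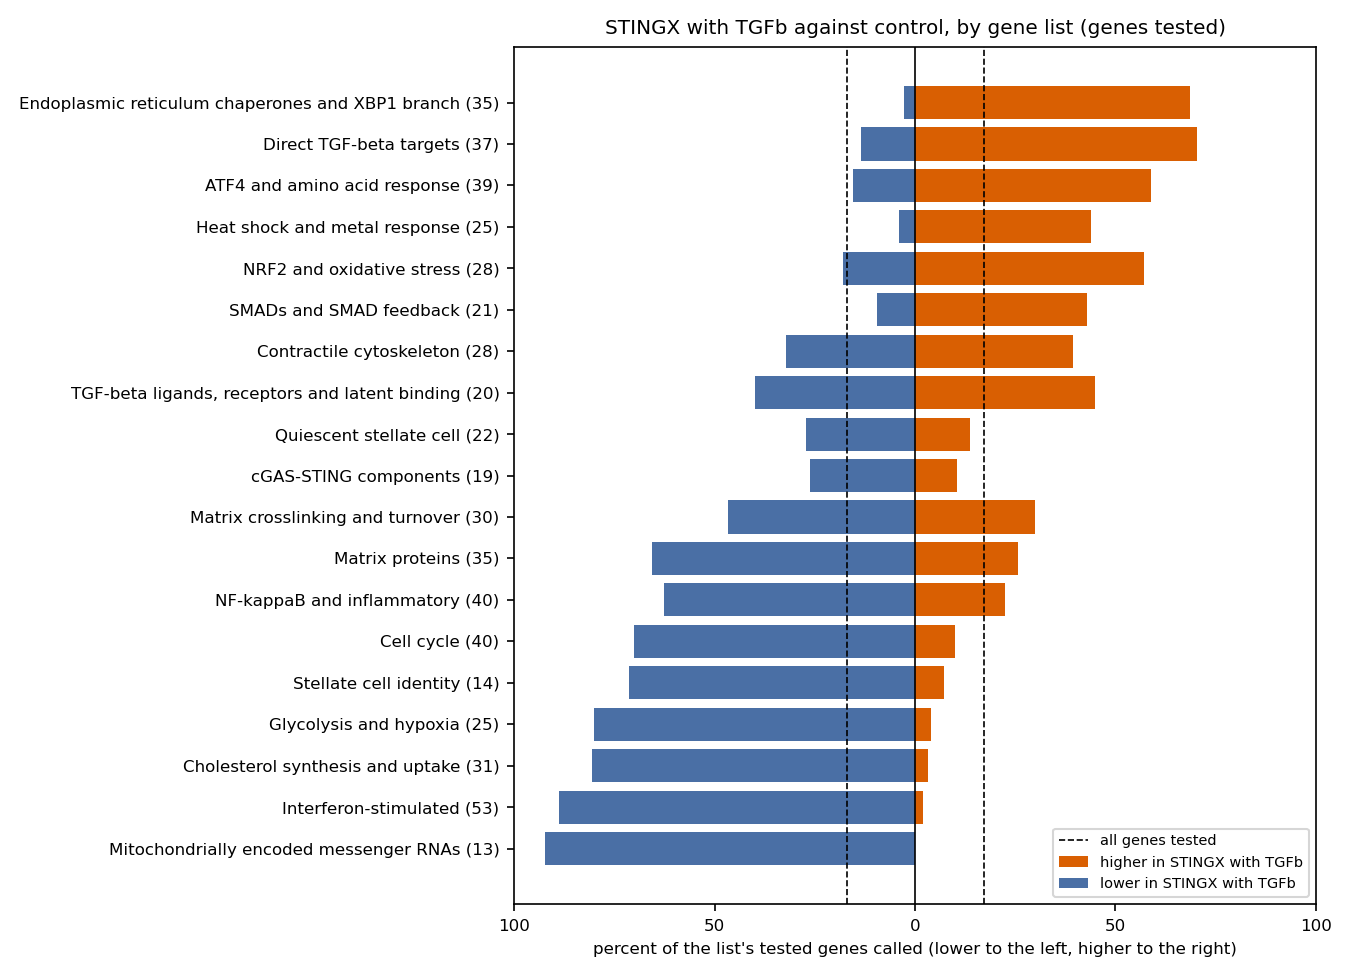
Percent of each list's tested genes called higher (to the right) or lower (to the left) in STINGX with TGFb against control, with the number tested in brackets; lists of 13 or more tested genes are shown, and dashed lines give the shares over all genes (17.2% and 17.0%). Endoplasmic reticulum chaperones and direct TGFb targets reach farthest to the right, and mitochondrial messenger RNAs and interferon-stimulated genes farthest to the left. The lists were chosen with earlier results of these data known, so the bars carry no test.

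Genes stimulated by interferon were lower than in untreated cells almost throughout: 47 of 53 fell, 1 rose and 5 were not called, with a median log2 fold change of -1.01 (0.41 in TGFb against control). For 30 of the 47, TGFb alone stood above the control. OASL, a relative of the oligoadenylate synthetases, stood at 18.9, 23.5, 16.6 and 16.6 CPM in the control libraries, 32.1, 31.1, 29.8 and 29.7 with TGFb and 0.603, 1.16, 1.09 and 1.25 with STINGX and TGFb, and IFI44 at 25.7, 25.5, 28.3 and 27.1 CPM in the control libraries, 67.9, 70.6, 65.5 and 66.8 with TGFb and 6.29, 5.64, 6.8 and 8.06 with STINGX and TGFb. Both were highest with TGFb and lowest with both agents (-4.20 and -2.0 in log2). IFIT1, which binds foreign RNA, stood at 28.2, 25.2, 24.4 and 22.8 CPM in the control libraries, 29.8, 33.3, 30.2 and 30.4 with TGFb and 1.58, 3.15, 1.76 and 2.3 with STINGX and TGFb (log2 fold change -3.51 ± 0.16 (SE), adjusted p = 4.34e-09). IFIT1 overlaps LIPA on the opposite strand. RSAD2, the antiviral enzyme viperin, had 0 counts in the 4 libraries with both agents and 270 counts over the control libraries, which is at least 95.6-fold lower, taking 3 counts summed over the 4 libraries as the floor. The chemokine genes fell as well: CCL5 stood at 106, 107, 54.6 and 96.3 CPM in the control libraries, 180.5, 189, 173 and 166 with TGFb and 13.8, 8.68, 14.9 and 13.6 with STINGX and TGFb, and CXCL10 and CXCL11 at 0, 0, 0.13 and 0.219 and 0, 0.108, 0.504 and 0 CPM with both agents against means of 1.08 and 1.73 in the control. Their log2 fold changes of -3.67 and -3.60 became -4.74 without STINGX with TGFb library 4 and -5.48 without library 3. The factor gene IRF1 fell from 154 to 72.3 CPM, and the antigen presentation gene HLA-B fell from 1345 to 577 CPM. DDX60L was the 1 that rose, from 14.4 to 17.8 CPM.

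The window at the start of IFIT1 is shown because this gene fell by more than most of its list; it is RefSeq sequence of GRCh38.p14 at chr10:89392373-89392672, plus strand, with capitals marking matches to GAAANNGAA, found here on the minus strand.
IFIT1: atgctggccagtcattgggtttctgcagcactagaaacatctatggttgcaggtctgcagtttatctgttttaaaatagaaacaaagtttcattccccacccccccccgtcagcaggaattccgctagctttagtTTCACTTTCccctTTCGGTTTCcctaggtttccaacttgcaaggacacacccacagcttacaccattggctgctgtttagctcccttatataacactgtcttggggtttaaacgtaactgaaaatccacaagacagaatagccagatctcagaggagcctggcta
The 2 matches begin 115 and 102 bases before the start. The letters stood in 8.11% of all windows, and by gene in 9.02% of those tested and in 27 of the 42 genes of the list that had one (64.3%). Among these 27, DDX60L was called higher, IFI27 and TAP1 were not called, and the rest were lower.

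Of 19 components of cGAS and STING signalling, 2 rose, 5 fell and 12 were not called (median -0.07). The number called was thus close to the share over all tested genes (34.2%, with 17.2% higher and 17.0% lower). STING1 stood at 70.5, 72.3, 53.8 and 57.4 CPM in the control libraries, 78.4, 86.5, 84.7 and 78.7 with TGFb and 47.7, 48.8, 49.2 and 48 with STINGX and TGFb, past the untreated level (log2 fold change -0.39 ± 0.086 (SE), adjusted p = 0.00357), with the lowest control library at 53.8 CPM and the highest library with both agents at 49.2. CGAS rose from 20.4 to 27.2 CPM, and IFI16, another DNA sensor, fell from 191 to 125 CPM. The kinase gene TBK1 and the factor gene IRF3 were not called, with differences of 0.00 ± 0.052 and -0.03 ± 0.092 (SE). SAMHD1, which degrades deoxynucleotides, fell from 94.2 to 53.8 CPM. TREX1, a DNA exonuclease, fell from 2.17 to 1.17 CPM with overlap between groups, and lost the call without any 1 of control libraries 1 and 2 and STINGX with TGFb libraries 1 and 4 (log2 fold change -0.71 to -0.82, adjusted p = 0.0838 to 0.0986).

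NF-kappaB and inflammatory genes fell in the main, with 25 of 40 lower and 9 higher and a median of -0.48. Of the 25, 16 were lower with TGFb alone as well. CFB, complement factor B, stood at 299, 310.5, 262 and 265 CPM in the control libraries, 93.2, 86.1, 89.2 and 90.9 with TGFb and 44.9, 45.4, 39.9 and 41.3 with STINGX and TGFb, and C3, the central complement protein, fell from 235 to 39.8 CPM. CCL20, a chemokine, and PTGES, a prostaglandin synthase, fell from 2.91 to 0.125 CPM and from 9.55 to 1.15 CPM; the fall of CCL20 was 4.50 in log2, and 5.83 without STINGX with TGFb library 1. CCL2, the chemokine that draws monocytes, behaved otherwise: 213, 216, 199 and 185 CPM in the control libraries, 236, 237, 216 and 223 with TGFb and 36.1, 34.7, 33.4 and 37.2 with STINGX and TGFb, so that TGFb alone was slightly above the control and both agents far below (log2 fold change -2.52 ± 0.06 (SE), adjusted p = 3.18e-11). Another group rose past the untreated level. IL1B stood at means of 685, 337 and 1124 CPM, TSLP at 2.27, 0.751 and 5.08 CPM, and CXCL3 and CXCL5 rose from 27.6 to 34.9 CPM and from 120.4 to 138 CPM. CXCL8, interleukin 8, stood at 711, 712, 693 and 674 CPM in the control libraries, 301, 319, 298 and 285 with TGFb and 733, 744, 733 and 748 with STINGX and TGFb, not called against the control (log2 fold change 0.08 ± 0.036, SE; adjusted p = 0.0928) though its libraries did not overlap. Over the alternative settings its log2 fold change ran from 0.03 to 0.16, and some of them called it higher. Within this list mean levels with both agents ran from 0.125 CPM for CCL20 to 1124 CPM for IL1B, and log2 fold changes from -4.50 to 1.31 for REL, an NF-kappaB subunit.

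Chaperones of the endoplasmic reticulum and genes of the XBP1 branch rose: 24 of 35 higher and 1 lower, with a median of 0.67 beside 0.1 for TGFb against control, and 14 of the 24 were not called with TGFb alone. HSPA5, the chaperone BiP that holds the stress sensors, stood at 2005, 1936, 1860.1 and 1865 CPM in the control libraries, 2217, 2143, 2109.8 and 2137 with TGFb and 6103, 6248, 6057 and 6072 with STINGX and TGFb (log2 fold change 1.68 ± 0.03 (SE), adjusted p = 3.94e-12). HYOU1, a larger chaperone, stood at 440.2, 411, 434 and 566 CPM in the control libraries, 569, 566, 562 and 563 with TGFb and 1428, 1432, 1159 and 1409 with STINGX and TGFb, and DNAJB9, which delivers clients to BiP, at 35.3, 36.3, 34 and 31.5 CPM in the control libraries, 36.5, 34.8, 31.9 and 36.3 with TGFb and 90.5, 93.3, 90.6 and 91 with STINGX and TGFb. In each of these 3 the libraries with both agents lay apart from both other groups. DERL3, part of the channel that returns misfolded proteins to the cytosol, rose from 5.2 to 18.8 CPM, and HSP90B1, PDIA4 and HERPUD1 rose by 0.94, 1.19 and 1.15 in log2. ERO1A, an oxidase also known as a hypoxia gene, was the 1 that fell (-0.40). CALR, P4HB and XBP1 were not called, with differences of 0.04 ± 0.052, -0.01 ± 0.061 and 0.32 ± 0.15 (SE).

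The ATF4 and amino acid list had 23 of 39 higher and 6 lower, with a median of 0.28. Beside SLC3A2, its partner SLC7A11, the cystine exchanger, stood at 27.6, 23.8, 24.8 and 22.5 CPM in the control libraries, 26.5, 27.2, 23.5 and 26.1 with TGFb and 82.7, 86.3, 85.5 and 81.3 with STINGX and TGFb (log2 fold change 1.77 ± 0.068 (SE), adjusted p = 1.45e-09). The other partner SLC7A5 rose from 74.6 to 117 CPM and stood at 160.0 CPM with TGFb alone. TRIB3, a pseudokinase induced by ATF4 and CHOP, crossed from below: 54.8, 56.6, 45.6 and 54.9 CPM in the control libraries, 40.3, 43.3, 38.8 and 43.6 with TGFb and 151, 145, 155 and 154 with STINGX and TGFb (log2 fold change 1.51 ± 0.067 (SE), adjusted p = 4.16e-09). CHAC1, which breaks down glutathione, and SESN2, a sensor of leucine, rose from 8.41 to 19.6 CPM and from 30.7 to 63.6 CPM. ALDH1L2, a mitochondrial folate enzyme, rose from 11.5 to 35.1 CPM. DDIT3, which encodes CHOP and overlaps MARS1 on the opposite strand, was uneven, at 32.4, 61.9, 51.1 and 30.2 CPM in the control and 84, 70.9, 119.7 and 66.3 with both agents. Its call (log2 fold change 0.96, adjusted p = 0.0354) was lost without any 1 of control libraries 1, 3 and 4 and STINGX with TGFb libraries 1 and 3 (0.75 to 1.04, adjusted p = 0.0514 to 0.1). ASNS, asparagine synthetase, rose by only 0.28, ATF3 was not called (0.07 ± 0.3, SE), and GDF15, a stress cytokine, fell from 4.64 to 1.11 CPM as it did with TGFb alone (0.98 CPM). PHGDH, the first enzyme of serine synthesis, fell (-0.37), so members of this list were called both ways.

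Windows of HSPA5 and CHAC1 are printed because each holds the letters its pathway is named for; both are RefSeq sequence of GRCh38.p14. That of HSPA5 is chr9:125241294-125241593, minus strand, with capitals marking CCAAT and CCACG separated by 9 bases (the endoplasmic reticulum stress element). That of CHAC1 is chr15:40953221-40953520, plus strand, with capitals marking TTGCATCA, to which ATF4 with a partner is known to bind.
HSPA5: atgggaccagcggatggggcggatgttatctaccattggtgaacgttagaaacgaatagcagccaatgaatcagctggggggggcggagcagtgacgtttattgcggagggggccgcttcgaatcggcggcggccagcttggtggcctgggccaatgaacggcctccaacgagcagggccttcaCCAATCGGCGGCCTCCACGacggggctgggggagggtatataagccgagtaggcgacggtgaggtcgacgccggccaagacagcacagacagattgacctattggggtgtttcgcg
CHAC1: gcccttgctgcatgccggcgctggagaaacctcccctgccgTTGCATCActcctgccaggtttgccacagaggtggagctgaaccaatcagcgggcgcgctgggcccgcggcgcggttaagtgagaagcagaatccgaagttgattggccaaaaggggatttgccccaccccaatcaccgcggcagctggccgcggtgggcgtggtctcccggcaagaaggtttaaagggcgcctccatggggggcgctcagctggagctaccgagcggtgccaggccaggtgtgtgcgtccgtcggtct
The matches begin 66 bases before the start of HSPA5 and 209 bases before that of CHAC1, both on the strand of the gene. On either strand the first pattern stood in 0.0769% of all windows, and by gene in 0.128% of those tested and in 8 of the 31 genes of the chaperone list that had one (25.8%): HSPA5, HSP90B1, PDIA6, CRELD2 and ERO1B, which rose, and CALR, CANX and XBP1, which were not called. The second stood in 0.866% of all windows, and by gene in 0.752% of those tested and in 6 of 33 genes of the ATF4 list (18.2%), among them CEBPG, AARS1 and NARS1, which rose, and SLC1A4, which fell. Neither the window of HYOU1 nor that of DNAJB9 held the first pattern. None of the 3 windows of SLC3A2 held TTGCATCA, and no window of TRIB3 did. GTCTAGAC, a SMAD palindrome, stood in no window of SMAD7. By gene it stood in 0 of 25 direct TGFb targets, 1 of 20 SMADs and feedback genes, and 0.256% of tested genes. TGACNNNGC, the antioxidant element, stood in 5 of 21 NRF2 genes (23.8%) and in 18.9% of tested genes.

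Genes of the oxidative stress factor NRF2 had 16 of 28 higher and 5 lower (median 0.22). HMOX1, heme oxygenase, stood at 31.3, 28.7, 25.6 and 24.5 CPM in the control libraries, 19.9, 23.7, 24.9 and 22.2 with TGFb and 117, 126, 123 and 127 with STINGX and TGFb (log2 fold change 2.16 ± 0.084 (SE), adjusted p = 1.55e-09). NQO1, a quinone reductase, and AKR1C1, a ketone reductase, crossed the untreated level in the same way, with means of 37.7, 23.6 and 71.6 CPM and 3.17, 1.35 and 8.67 CPM. GCLM, which limits glutathione synthesis, was TGFb-like and rose from 27.9 to 78 CPM. Of 25 heat shock and metal response genes 11 rose and 1 fell (median 0.15). The number that fell was 4 with upper quartile scaling, 3 with a filter of at least 1 CPM in 4 libraries, with the replicate block or without control library 4, and 2 with the 8 libraries of both groups or without control library 3, TGFb library 1 or TGFb library 3. HSPH1, HSPA1B and CHORDC1 rose by 0.54, 0.45 and 0.44 in log2, and the zinc exporter SLC30A1 rose from 21.9 to 45.3 CPM. HSPA6, a strictly inducible member of the family, led the rises not called in TGFb against control, at 4.37, 4.25, 5.02 and 5.31 CPM against 0.336, 0.576, 0.512 and 0.282 in the control. With TGFb alone HSPA6 stood at 0.667, 0.837, 0.937 and 0.615 CPM, above every control library. That difference was just short of a call (TGFb against control, log2 fold change 0.84, edgeR adjusted p = 0.0519). Heat shock genes of this family and the AKR1C genes have near-identical copies, so reads may have been split between them.

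**Figure D3:**
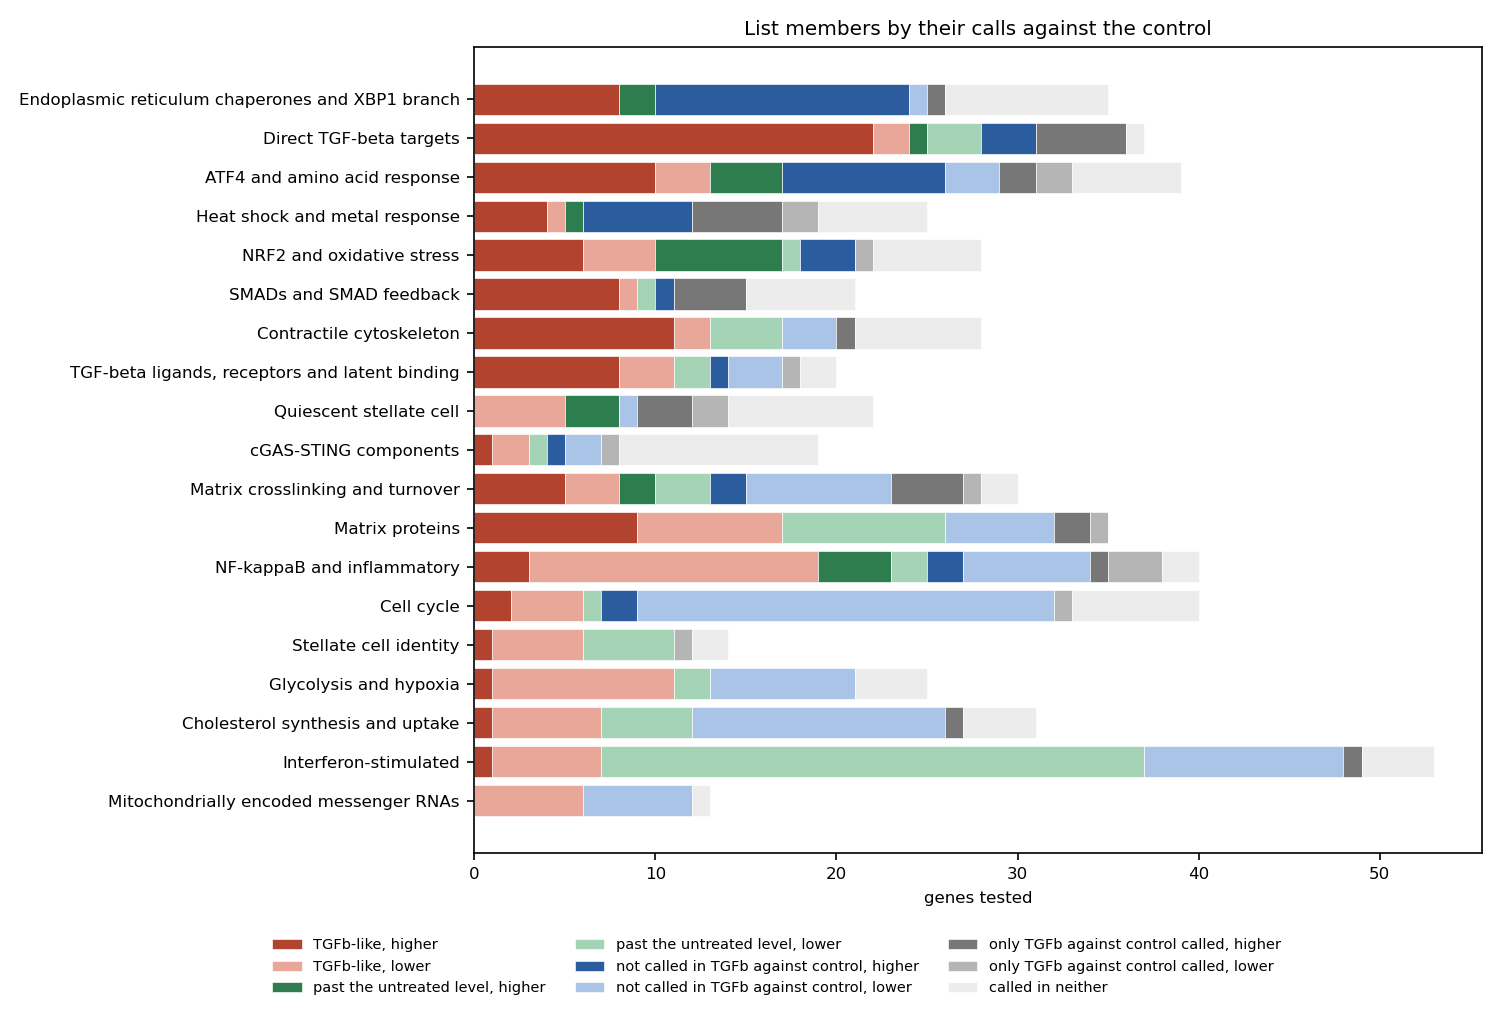
Number of tested genes of each list by their calls in STINGX with TGFb against control and in TGFb against control. Interferon-stimulated genes hold 30 genes in the class past the untreated level and lower, direct TGFb targets hold 22 that are TGFb-like and higher, and the cell cycle list holds 23 that are lower without a call in TGFb against control.

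In the cell cycle list, 28 of 40 genes were lower and 4 higher, with a median of -0.57, and 23 of the 28 were not called in TGFb against control. KIF20A, a kinesin of cytokinesis, stood at 151, 148, 138 and 146 CPM in the control libraries, 135, 132, 139 and 129 with TGFb and 42.7, 46, 43.1 and 45.4 with STINGX and TGFb, and TOP2A, topoisomerase II alpha, at 455, 442, 491 and 474 CPM in the control libraries, 462, 467, 452 and 465 with TGFb and 197, 192, 191 and 193 with STINGX and TGFb. In both the libraries with both agents stood apart while control and TGFb overlapped. MKI67, the proliferation antigen, was less even, at 326, 221, 226 and 329.6 CPM in the control and 80.5, 151, 179 and 187 with both agents, and lost its call (log2 fold change -0.88, adjusted p = 0.0311) without control library 1 or 4 or STINGX with TGFb library 2 (-0.79 to -0.89, adjusted p = 0.0669 to 0.0811). Named here after their values were seen, CCNB1, cyclin B1, fell by 1.15, MCM7 by 0.51 and MCM2 by 0.24. CCND1, cyclin D1, was TGFb-like and rose from 388 to 663 CPM, and CDKN1A was not called (-0.04 ± 0.46, SE).

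Cholesterol synthesis and uptake had 25 of 31 lower, 1 higher and a median of -0.92. HMGCS1, which starts the pathway, fell from 396 to 158 CPM, and FDFT1, which commits it to sterols, fell from 138 to 57.8 CPM. SCD, a fatty acid desaturase, was above the control with TGFb alone and below it with both agents, with means of 1002, 1196 and 434 CPM. ABCA1, which exports cholesterol, was the 1 that rose, with means of 98, 169 and 241 CPM. Glycolysis and hypoxia had 20 of 25 lower and a median of -0.57. LDHA, lactate dehydrogenase A, stood at 889.9, 859.5, 1052 and 779 CPM in the control libraries, 734, 929, 780.2 and 785 with TGFb and 419.5, 443, 418 and 418 with STINGX and TGFb, and PGK1, a kinase that yields ATP, fell from 923 to 465 CPM. ANGPTL4, a lipase inhibitor, was the 1 that rose (2.53). Of the mitochondrially encoded messenger RNAs 12 of 13 fell and none rose (median -0.47). MT-CO2, a subunit of the respiratory chain's last complex, stood at 10141, 9379, 8895 and 9727 CPM in the control libraries, 8382, 7822, 7863 and 8177 with TGFb and 5302, 5183, 5069 and 5384 with STINGX and TGFb. Its 3 groups did not overlap, and the pair of agents was lowest (log2 fold change -0.87 ± 0.04 (SE), adjusted p = 6.04e-09).

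Of the stellate cell identity markers 10 of 14 fell and 1 rose (median -0.54), most of those that fell being the collagens and proteoglycans above. The 1 that rose, the protease inhibitor TIMP1 (0.23 ± 0.082 in log2, SE; adjusted p = 0.0466), was not called with RLE or upper quartile scaling, with DESeq2, without a filter, with the older form of the fit, with the 8 libraries of both groups, or without control library 3 or 4, any 1 TGFb library, or STINGX with TGFb library 2 or 3. PDGFRB, the receptor for the growth factor that makes stellate cells divide, crossed to below the control, with means of 78.8, 169 and 52.7 CPM, and VIM, vimentin, was not called (0.03 ± 0.066, SE). Of 22 tested genes of the quiescent stellate cell, 3 rose, 6 fell and 13 were not called (median -0.16). Over all tested genes 34.2% were called, 17.2% higher and 17.0% lower. RELN, reelin, rose above the control, at 7.08, 6.22, 6.75 and 7.14 CPM against 2.37, 2.24, 1.61 and 2.5 in the control and 1.07, 0.99, 0.765 and 2.08 with TGFb. VIPR1, a peptide receptor, stayed low at 0.329, 0.162, 0.553 and 0.379 CPM against 3.68, 4.68, 3.81 and 4.1 in the control, and CCN3, a growth inhibitor of the family of CCN2, fell from 20.5 to 9.65 CPM. PLIN2, which coats lipid droplets, rose from 39.9 to 47.5 CPM and stood at 20.7 CPM with TGFb alone. These markers gave no single direction, and their counts were not tested against the shares over all genes.

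Markers of other liver cells were low and mixed. Beside their counts, 17.2% of all tested genes were higher and 17.0% lower. For 13 endothelial markers the sum was 46.2 to 53.1 CPM in the control and 57.6 to 60.4 with both agents, with EMCN, CLEC4G and LYVE1 at 0, and of 8 tested 2 rose and 2 fell; TIE1, a receptor of vessels, rose from 37.2 to 46.6 CPM and CDH5, a vessel cadherin, fell from 1.87 to 0.25 CPM. For 16 macrophage and leukocyte markers it was 74.3 to 81.9 CPM in the control, 31.7 to 38.1 with TGFb and 78.2 to 93.3 with both agents, with TYROBP, C1QA, C1QB and CD3E at 0. Of 6 tested 3 rose and 2 fell. CSF1R, a receptor that macrophages depend on, rose from 1.24 to 3.47 CPM, FCER1G, a subunit of antibody receptors, from 0.594 to 1.79 CPM, and the lysosomal protein gene CD68 from 59.6 to 75.9 CPM. CD14, a receptor for bacterial lipids, fell from 15.7 to 2.3 CPM, and PTPRC, from 0.255 to 0.0394 CPM, was also called lower, but not with the older form of the fit or limma on log2(FPKM + 1), and a filter of at least 1 CPM in 4 libraries removed it. For 10 cholangiocyte and epithelial markers it was 63.1 to 69.4 CPM in the control and 47.2 to 50.3 with both agents, with CFTR at 0; SPP1, osteopontin, rose from 1.96 to 7.72 CPM and SOX9 fell from 31.5 to 20.5 CPM. Their part in the results above was not tested.

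Among genes of at least 2 CPM, the largest crossings beside those of HMOX1, RELN, TRIB3, OASL, CCL5, CCL2 and IFI44 were upward in RPLP0P2, a pseudogene that shares sequence with RPLP0 and is therefore uncertain (3.02), and in SLAMF7, a receptor of immune cells (1.52), and downward in GBP4, a guanylate binding protein (36.7, 33.9, 37 and 35.6 CPM in the control libraries, 78.7, 84, 79.3 and 75.4 with TGFb and 9.32, 9.61, 7.38 and 9.17 with STINGX and TGFb; -2.01). Of the rises not called in TGFb against control, KCP, a modulator of bone morphogenetic proteins, FAM180A and the long noncoding LINC00520 rose by 2.38, 2.29 and 2.26. KCP and FAM180A each overlap a neighbour on the same strand. Of the falls, IFIT2, CEACAM1, an adhesion molecule, and NMU, the peptide neuromedin U, fell by 2.74, 2.85 and 2.38 in log2. AL022238, which overlaps SGSM3 and ADSL on the same strand, and AC244197, which overlaps IDS likewise, had uneven control libraries (0, 6.1, 2.87 and 0.474 CPM and 18, 8.45, 5.12 and 69.8 CPM). AL022238 lost its call without any 1 library other than control 2 and TGFb 1 (adjusted p = 0.0539 to 0.1), and its log2 fold change of 2.29 was 3.35 without control library 2. AC244197 lost it without control library 4 or any 1 library with both agents (adjusted p = 0.0585 to 0.0923), and its -3.56 was -2.29 without control library 4.

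Single transcripts were tested next. Of 79677 tested, 2751 were called between STINGX with TGFb and control (3.45%), 1274 higher (1.60%) and 1477 lower (1.85%), in 2389 genes. For 2386 of them the gene was called the same way, for 292 the gene was not called, and for 73 the gene was called the other way (42 transcripts higher with the gene lower, 31 the reverse). The spread between libraries was far wider than for genes, with a common biological coefficient of variation of 97.4% against 28%. Use of transcripts, meaning each one's share of its gene's counts, was tested in 9208 genes with at least 2 transcripts of 10% or more. It changed in 81 genes (0.880%; edgeR diffSpliceDGE, Simes test per gene), and in 52 of these a transcript had shares that did not overlap between the groups, as did 1406 of the 9208 genes tested (15.3%). The choice of test matters here: limma's diffSplice called 259 genes, and 20 were shared, which is 24.7% of the 81 and 7.72% of the 259.

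Of the 3 genes set out first, none passed the usage test (adjusted p = 1 for each). The protein-coding SMAD7 transcript ENST00000262158 had a mean share of 27.5% in both groups, and ENST00000545051, annotated as a retained intron, had 68.1% and 69.7%. Both transcripts were called higher, by 1.83 and 1.76 in log2 (adjusted p = 0.000467 and 0.000495). For SLC3A2, ENST00000338663 had 40.1 ± 4.86% in the control and 47.1 ± 9.84% with both agents (SD, n = 4), and ENST00000377890, which begins farther upstream, had 16.4 ± 3.25% and 35.9 ± 12.7%. The second rose by 4.12 in log2 and the first by 3.15 (adjusted p = 7.06e-05 and 0.00066). So the rise of SLC3A2 was carried by both of these transcripts. For VCAM1, ENST00000294728 held 99.5, 98.5, 28.6 and 33% of the gene's counts in the control libraries and 97.3, 16.3, 92.8 and 95.5% with both agents. Its share was thus uneven within both groups.

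For 5 genes whose transcript shares differed between groups, the 30 bases across the junction that separates the pair are printed, from the GENCODE v29 transcripts on GRCh38; lower case is the exon that differs and capitals are the next exon, which both transcripts share.
MCC ENST00000302475: gccgagctgagtgagCTCCATTCAGCAGCC
MCC ENST00000408903: gagctggccaacacaCTCCATTCAGCAGCC
JMJD1C ENST00000542921: attctcaagaacaaaACTTTCAAACCTCTG
JMJD1C ENST00000399262: cagtggcctgcattgACTTTCAAACCTCTG
POLR1B ENST00000333990: atattgggattacagGCTATACCTCCCTTT
POLR1B ENST00000263331: ggcctcgcggtgcagGCTATACCTCCCTTT
KIFC3 ENST00000445690: tacctgaccctgcagGTAGAACACCTGAAG
KIFC3 ENST00000540079: gtggagatgatcaagGTAGAACACCTGAAG
FSTL3 ENST00000166139: ggggccgctgccgcaAGTCCTGTGAGCACG
FSTL3 ENST00000592947: cacactgggcaagagAGTCCTGTGAGCACG
In MCC (chromosome 5) the pair differs in its upstream exons, exon 1 of 17 at 113294329-113294949 against exon 3 of 19 at 113340519-113340730, both joined to 113151309-113151422. In POLR1B (chromosome 2) exon 2 of 16 at 112545831-112545922 is joined to 112547012-112547179 in the transcript annotated as a target of nonsense-mediated decay, which codes for 219 bases in place of 3405.

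MCC, a gene mutated in colorectal cancer, switched. ENST00000302475 held 0.613, 0.911, 0 and 0% of the gene's counts in the control libraries, 96.5, 73.6, 97.4 and 90.3% with TGFb and 95.9, 94.4, 96.1 and 96.6% with STINGX and TGFb, and ENST00000408903 held 98.2, 97.9, 95.9 and 93% in the control and 1.28, 0.71, 0.868 and 1.63% with both agents. The switch was there with TGFb alone, while the gene as a whole rose by only 0.23. Usage passed at adjusted p = 0.028 and by limma (8.62e-06), but 6 of 12 fits that left out 1 library did not pass, those without any 1 control library or STINGX with TGFb library 1 or 2 (adjusted p up to 0.0717). JMJD1C, a histone demethylase relative, was read from ENST00000542921 at 0, 0, 0 and 0% of the gene's counts in the control libraries, 89.3, 89.3, 0 and 88.5% with TGFb and 89.7, 88.3, 89.3 and 90.8% with STINGX and TGFb; a count of 0 over the control allows a share of up to 0.0207%. That limit covers counting error only, not how reads were assigned to transcripts. TGFb library 3 was like the control. Its usage adjusted p was 0.00505, lost only without control library 2 (0.0962), while limma gave 0.198.

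In 2 genes the transcript was near 0 in both other groups. POLR1B, a subunit of RNA polymerase I, had ENST00000333990 at 0.914, 1.48, 0 and 0.267% of the gene's counts in the control libraries, 0, 0.856, 0.038 and 0.512% with TGFb and 74.4, 63.1, 65.1 and 59.3% with STINGX and TGFb, and its protein-coding ENST00000263331 fell from 99, 97.1, 97.8 and 98.2% to 20.1, 35.7, 32.7 and 39.3%. The call (adjusted p = 0.0168, and 4.33e-06 by limma) was lost only without control library 4 (0.0654). KIFC3, a motor protein, had ENST00000445690 at 0.313, 0.319, 0.505 and 0.362% of the gene's counts in the control libraries, 0.519, 0.333, 2.66 and 1.33% with TGFb and 59.5, 56.3, 54.9 and 58.8% with STINGX and TGFb. Its adjusted p was 0.0256, and 0.105 by limma, and the call was lost without control library 2 or any 1 library with both agents (up to 0.164). The gene total of KIFC3 differed by only -0.21 in log2. The other transcript of the printed pair, ENST00000540079, was uneven, at 44.9, 42.3, 0 and 41.5% of the gene's counts in the control libraries, 0, 36.5, 0 and 49.9% with TGFb and 0.009, 0, 0 and 0% with STINGX and TGFb. It was thus at 0 in control library 3 and in 2 of the 4 TGFb libraries.

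Other switches were uneven as well. CCDC15 had ENST00000344762 at 93.8, 20.3, 8.79 and 19.9% in the control and 96.8, 98.3, 96.7 and 97.6% with both agents, so control library 1 was like the treated ones. That usage passed at 0.0129 (limma 0.0184), and was lost without STINGX with TGFb library 1 (0.0644). SLC39A1, a zinc transporter, and UBE3A, a ubiquitin ligase, passed at 0.0388 and 0.0186 but not by limma (0.147 and 0.215), and lost the call in 7 and 3 of 12 fits that left out 1 library (up to 0.163 and 0.0541): for SLC39A1 those without control 3 or 4, TGFb 2 or any 1 library with both agents, and for UBE3A those without STINGX with TGFb 2, 3 or 4. CCBE1, a secreted lymphatic growth protein, had ENST00000439986 at 91, 93.8, 88.9 and 0.021% with both agents against under 0.1% in each control, so 1 library of 4 was like the control; it passed at 0.0126, with limma giving 0.607 and the fit on the 8 libraries alone 1.0, and was lost without control 1, 2 or 4 (up to 0.0653).

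**Figure D4:**
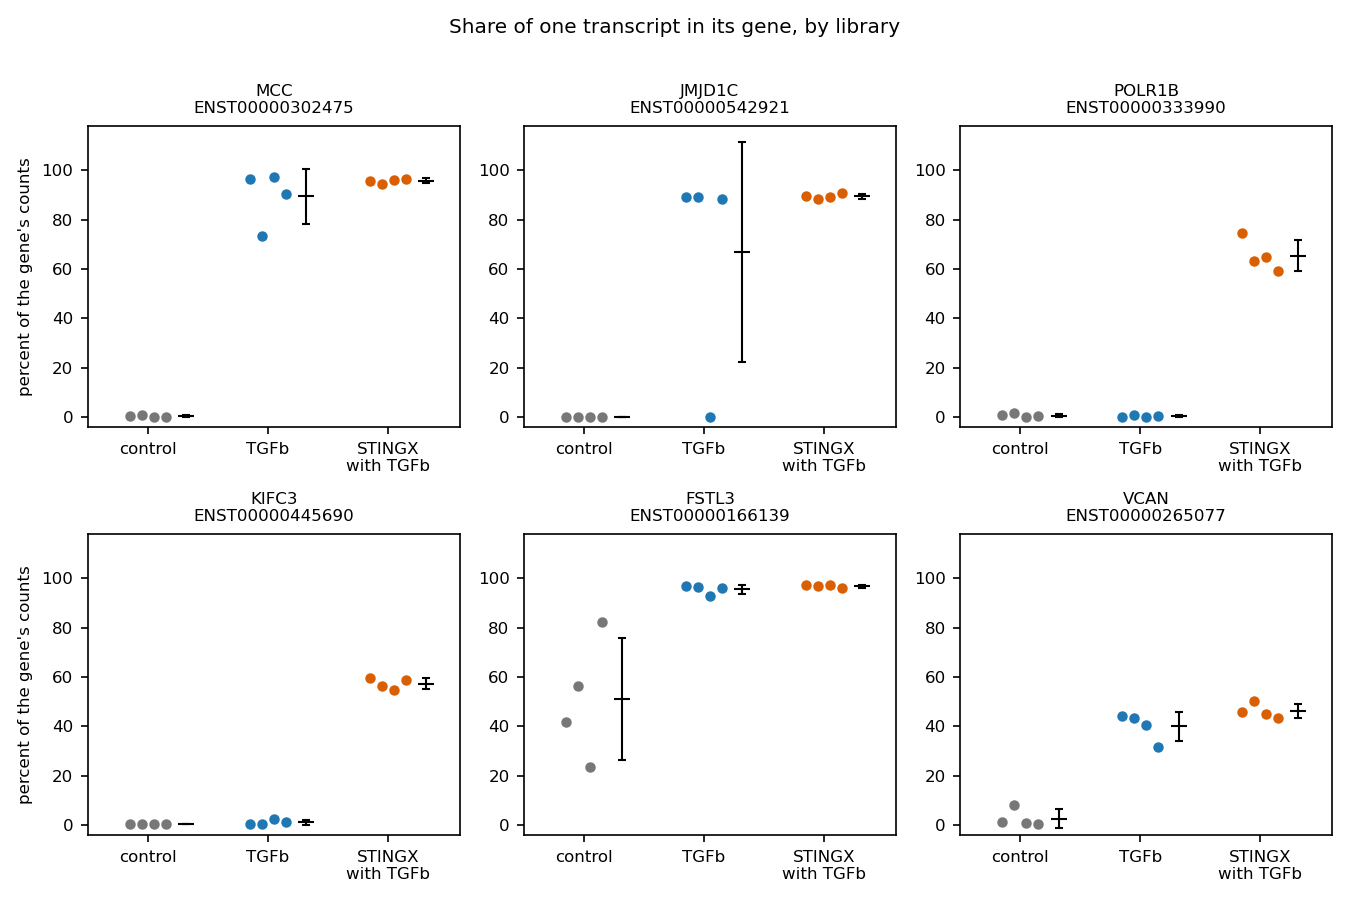
Share of 1 transcript in its gene's counts, in percent, for 6 genes; each point is a library and the black marks give the mean and SD of a group. In POLR1B and KIFC3 the 4 libraries with STINGX and TGFb lie at 54.9 to 74.4% and all other libraries below 3%, while in MCC, FSTL3 and VCAN the TGFb libraries lie nearer to those of STINGX and TGFb than to the control means.

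Of 292 list genes tested for usage, 7 passed (2.4%, against 0.880% of all genes tested): FSTL3, IFI44, OASL, SLC6A9, SOD2, TGIF2 and VCAN, named here after their values were seen. The lists were chosen with earlier results of these data known, so the 2 shares are a description and carry no test. IFI44 passed at 0.0432 (limma 0.0101) but not with transcripts of at least 5% (0.24). It kept its call in 5 of 12 fits that left out 1 library. In VCAN, ENST00000265077, a form with 10188 coding bases, held 1.19, 8.21, 0.669 and 0.327% of the gene's counts in the control libraries, 44.4, 43.5, 40.5 and 31.6% with TGFb and 46, 50.3, 45.1 and 43.5% with STINGX and TGFb. It was thus TGFb-like in share as the gene was in level (adjusted p = 0.0251, limma 0.000223), with the call lost without control 1, 3 or 4 (up to 0.137). In FSTL3, ENST00000166139, with 789 coding bases, held 42, 56.4, 23.6 and 82.3% in the control and 97.3, 96.9, 97.2 and 96% with both agents, so its share and its gene's level rose together. That usage adjusted p was 0.031 (limma 0.000112), lost without control 1, 2 or 3 or any 1 library with both agents (up to 0.12). In OASL, ENST00000339275, with 765 coding bases, held 11.4, 26.6, 10.3 and 10.9% in the control and had 0 counts with both agents, which at the low level of the gene there allows up to 1.06%. It passed at 0.0201 (limma 0.0597), lost without control 2 or any 1 library with both agents (up to 0.0747). The limit of 1.06% covers counting error only.

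Some called transcripts went against their gene, the 4 with the largest change being CD151 ENST00000525181, IARS1 ENST00000443024 and SLC35G2 ENST00000393079, lower while the gene rose, and GALNS ENST00000568613, higher while the gene fell. IARS1, an amino acid-tRNA ligase, shows how uneven these are: ENST00000443024 held 0.043, 43, 31.7 and 82.4% of the gene's counts in the control libraries, 39.6, 0.006, 79.1 and 73.7% with TGFb and 0.004, 0.004, 0.087 and 0.01% with STINGX and TGFb. The control library that was low overlapped those with both agents. CD151, a tetraspanin, rose by 0.64 in log2, and ENST00000525181, a short transcript with no coding part, held 2.86, 0.85, 3.27 and 3.32% in the control and 0 with both agents (up to 0.00368%). In GALNS, a lysosomal sulfatase gene, ENST00000568613 is annotated as a target of nonsense-mediated decay and held 4.61, 3.13, 4.67 and 0.51% with both agents against 0 in the control (up to 0.0178%). The limits given for CD151 and GALNS cover counting error only, not how reads were assigned to transcripts. IARS1 and SLC35G2 did not pass the usage test (adjusted p = 0.0978 and 0.115), and the transcripts of CD151 and GALNS, under 10% of their gene, were not part of it.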

How the data were processed

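Poly(A) RNA of 12 LX2 libraries was sequenced, 4 in each group. Per the submitters' processing notes the authors used cutadapt, HISAT2, StringTie and edgeR with GRCh38; for versions, annotation, settings and strand use when counting, the sources used here state nothing. The deposited values used were whole estimated counts per gene and transcript, taken as deposited, and the authors' FPKM values, used only in alternatives as log2(FPKM + 1) and log2(FPKM + 0.1), which understates the change of low genes. Reads shared by transcripts were assigned before deposit, so counts of single transcripts are estimates.

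All 12 libraries entered 1 fit with 9 residual degrees of freedom (R 4.3.3, edgeR 4.0.16, TMM scaling, filterByExpr with a minimum count of 10 and a minimum total of 15, robust quasi-likelihood tests, Benjamini-Hochberg adjustment over all tested genes, two-sided, threshold 0.05). This left 21328 of 60612 genes and 79677 of 229420 transcripts. Transcript usage was tested with diffSpliceDGE on transcripts with at least 10% of their gene. Alternatives used limma 3.58.1 and DESeq2 1.42.0; tables and figures were made with Python 3.11.15. Limits for a count of 0 use 3 counts over the group, and they and the counting interval (95%) cover counting error only.

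The gene lists and the genes named were chosen with earlier results of these data known. Named genes were the 5 largest rises and falls of each class among called genes of at least 2 CPM without overlap of the groups, up to 4 called members of each list by size of change whatever their level or overlap, and a fixed panel, called or not; other list members were named after their values were seen. Named transcripts came from the 8 usage genes of at least 5 CPM with the largest change in share, the 4 with the largest change against their gene, and the transcripts of SMAD7, VCAM1 and SLC3A2. Promoter windows came from RefSeq (GRCh38.p14) and matched 12507 of 20275 tested genes with a symbol. A few named genes are not reported here.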

Additional observations from a re-analysis of the deposited data

Results flagged for a closer look

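In 17 of 340 groups of 4 libraries (5.0%), 1 library stood far from the other 3 by Dixon's ratio; chance gives about 1 in 20. Control 3 was low for AP001972 at 0.632 CPM (21.6 to 22.3), TRIB3 at 45.6 (54.8 to 56.6) and MT-CO3 at 8610.0 (9570.0 to 9760.0). Control 1 was low for NUSAP1, a spindle protein, at 74.3 CPM (185 to 190.0) and for LSS, lanosterol synthase, at 265 (281 to 283). Control 2 was high for SERPINA1, a hepatocyte marker, at 10.5 CPM (7.62 to 7.95) and for AC005192 at 0.0156 (0 in the others), and control 4 was at 0 for KANK4, a TGFb target (0.0602 to 0.0639).

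Among TGFb libraries, IFIT1 was at 33.3 CPM in library 2 (29.8 to 30.4), EGR2 at 43.4 in library 1 (37.7 to 38.4) and TAGLN at 462 in library 4 (538 to 554). Among libraries with both agents, library 4 held SAMHD1 at 71.8 CPM (46.3 to 49.3) and PTPRC, a leukocyte marker, at 0 (0.0488 to 0.0549). Library 3 held HYOU1 at 1160.0 CPM (1410.0 to 1430.0) and IDI1, an enzyme of cholesterol synthesis, at 15 (44.8 to 47.7), and library 2 held DNAJB9 at 93.3 (90.5 to 91.0) and LDHA at 443 (418 to 420.0).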

How the results depend on the processing

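Among genes called both here and under an alternative, none had the opposite sign (4912 to 7216 genes). The balance of calls turned: lower genes outnumbered higher ones with upper quartile scaling (4154 against 3097), RLE size factors (3676 against 3590) and DESeq2 (3777 against 3726). Counts of higher and lower genes stayed within 1.5 times of 3670 and 3626 under every alternative, and ranged from 3240 to 3654 and 3178 to 3582 when 1 library was left out. At adjusted p under 0.01, 1933 genes were TGFb-like and 245 past the untreated level; leaving out 1 library gave 2749 to 3104 and 373 to 407. Transcripts were less stable. Higher transcripts numbered 1918 with library size alone, 528 at adjusted p under 0.01, and 836 to 1148 without 1 library (836 and 841 without STINGX with TGFb libraries 1 and 2). Lower transcripts numbered 689 at adjusted p under 0.01 and 1005 to 1315 without 1 library. Usage changed in 259 genes with limma's diffSplice, 204 with transcripts of at least 5%, and 28 to 111 without 1 library, 28 being without control library 2. The causes were not tested. With the replicate number as a block, 3617 genes were higher and 3499 lower, 717 transcripts higher and 915 lower, and 25 genes changed usage. Same-numbered control and STINGX with TGFb libraries correlated at 0.018, 0.021, -0.038 and -0.003, and 2 of 4 correlated best with their own number. So few values cannot tell whether the numbers pair the samples. One count was at most 0.0185 CPM, which limits what is said of genes below about 0.1 CPM.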
